A study of Mus musculus with 10 samples.

Results

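Midkine (*Mdk*), pleiotrophin (*Ptn*), their partners *Ptprz1*, *Sdc1* and *Sdc4*, the chemokines *Cxcl12* and *Cxcl14*, and the CXCL12 receptors *Cxcr4* and *Ackr3* were described in single cells of the developing mouse incisor. These 9 genes were chosen by symbol, with earlier results of these data known, and each matched 1 of the 32285 genes counted at each stage. The material was whole mandibles at E11.5 (E for embryonic day) and lower incisor buds dissected at E14.5 or at E16.5, all from wild type mice, dissociated with Collagenase P and captured as single cells on the 10x Genomics 3′ platform. No group carried a transgene or received a treatment. The labels list 4, 4 and 2 samples for the 3 stages, but all barcodes of a stage carry the same suffix, so each stage was treated as 1 sample. Stage, dissection and sample therefore cannot be told apart, no test between stages or lineages was made, and the brackets after each value give a 95% interval of counting error only.

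Midkine and pleiotrophin are the members of a small family of secreted growth factors that bind heparan and chondroitin sulfate chains. They act through the receptor tyrosine phosphatase PTPRZ1, through syndecans such as SDC1 and SDC4, which carry those chains at the cell surface, and through other receptors. CXCL12 is a chemokine that guides migrating cells through the receptor CXCR4, while ACKR3 takes CXCL12 up and removes it without classical G protein signaling. CXCL14 is a related chemokine whose receptor is less well settled. Both growth factors are known from organs in which an epithelium and a mesenchyme act on each other, and the tooth is one of them.

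The 9 genes lie on 5 chromosomes of the mouse genome (build GRCm38, GENCODE vM21) and are all annotated as protein coding. *Mdk* is at chr2:91929805-91932297, *Ptn* at chr6:36714929-36810220, *Ptprz1* at chr6:22875502-23052916, *Sdc1* at chr12:8771323-8793715 and *Sdc4* at chr2:164424247-164443887. *Cxcl12* is at chr6:117168535-117181367, *Cxcr4* at chr1:128588199-128592293, *Ackr3* at chr1:90203980-90216751 and *Cxcl14* at chr13:56288643-56296551. Promoter windows of 300 bases, from 250 before to 50 after the start of the RefSeq transcript, were taken from RefSeq (GRCm38.p6) for 8 of the 9 genes. The 4 shown here belong to *Ptn*, *Sdc1*, *Cxcl12* and *Cxcl14*, which were all higher in mesenchyme-like than in epithelium-like cells at both later stages, as described below. Each is printed 5′ to 3′ on the strand of its gene and ends 30 bases after that start, which for *Ptn* and *Sdc1* lies inside the gene bounds given above. Capitals mark matches to TATAAA or GGGCGG on either strand, and overlapping matches run together.
*Ptn*, chr6:36810150-36810429, minus strand: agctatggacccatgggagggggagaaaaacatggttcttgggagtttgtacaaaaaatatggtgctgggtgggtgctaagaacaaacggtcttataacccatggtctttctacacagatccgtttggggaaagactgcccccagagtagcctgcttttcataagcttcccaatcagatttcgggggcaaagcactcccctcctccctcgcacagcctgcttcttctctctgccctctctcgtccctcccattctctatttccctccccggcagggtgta
*Sdc1*, chr12:8771146-8771425, plus strand: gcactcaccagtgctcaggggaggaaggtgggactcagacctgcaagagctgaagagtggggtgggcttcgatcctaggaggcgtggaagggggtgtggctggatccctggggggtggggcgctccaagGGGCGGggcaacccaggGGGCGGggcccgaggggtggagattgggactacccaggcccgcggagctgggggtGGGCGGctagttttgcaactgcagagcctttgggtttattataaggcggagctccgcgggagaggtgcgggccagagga
*Cxcl12*, chr6:117168285-117168564, plus strand: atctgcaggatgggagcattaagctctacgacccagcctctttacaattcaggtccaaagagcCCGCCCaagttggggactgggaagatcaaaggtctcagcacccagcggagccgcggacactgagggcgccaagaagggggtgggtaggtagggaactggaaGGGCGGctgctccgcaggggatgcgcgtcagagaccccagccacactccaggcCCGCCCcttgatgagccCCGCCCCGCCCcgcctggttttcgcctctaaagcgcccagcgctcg
*Cxcl14*, chr13:56296522-56296801, minus strand: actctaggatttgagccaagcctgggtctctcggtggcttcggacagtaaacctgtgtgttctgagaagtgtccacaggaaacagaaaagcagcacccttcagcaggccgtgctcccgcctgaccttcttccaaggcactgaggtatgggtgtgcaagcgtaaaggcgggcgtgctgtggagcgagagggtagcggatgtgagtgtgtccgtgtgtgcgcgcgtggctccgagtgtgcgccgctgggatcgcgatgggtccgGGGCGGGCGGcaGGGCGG
The 4 promoters did not look alike in these letters. The *Cxcl12* window held 5 matches to GGGCGG, the *Sdc1* and *Cxcl14* windows held 3 each, and the *Ptn* window held 0. None of these 4 windows held TATAAA, so the capitals above are all matches to GGGCGG and the *Ptn* line has none. Over 32841 promoters of the same length, GGGCGG occurred in 35.7% and TATAAA in 13.6%. Among the other windows, *Ptprz1* held 2 matches to GGGCGG, *Sdc4* 4, *Cxcr4* 3 and *Ackr3* 1, while TATAAA was matched 2 times in *Cxcr4*, by overlapping matches on the 2 strands, and 1 time in *Ackr3*. Of other motifs searched, CCAAT was matched 1 time each in *Ptn*, *Sdc1* and *Ackr3* and occurred in 37.4% of promoters, and CANNTG was matched 1 time each in *Sdc1* and *Ackr3* and occurred in 72.3%. A match describes the letters and does not show that a factor binds there.

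After the filter on cells (at least 700 genes and at most 20% mitochondrial UMIs), 6573, 6091 and 4511 cells were kept from the E11.5, the E14.5 and the E16.5 material, with a median of 5664, 3471 and 6260 UMIs (unique molecular identifiers, each standing for 1 captured transcript). Each cell was assigned to the lineage of which it showed the most markers. Epithelium-like cells numbered 12, 622 and 1411, and mesenchyme-like cells 5628, 4430 and 2500. Endothelium-like cells numbered 74, 152 and 118, and immune-like cells 59 and 123 at the first 2 stages. Muscle-like cells were found mainly at E11.5 (59), and glia- and neural crest-like cells reached 35 at E14.5. A further 595, 582 and 378 cells stayed unassigned, of which 445, 404 and 266 missed the rule by 1 marker, while 721, 636 and 380 assigned cells passed it with the smallest lead allowed. Because E11.5 held 12 epithelium-like cells, no epithelial value is given for that stage. Between 9 and 11 barcode sequences were shared by any 2 stages.

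Since these markers made the call, their levels in the called cells are a description and no check of the names. The median mesenchyme-like cell held 0 UMIs of the epithelium, endothelium, immune, glia and muscle markers at each stage, beside 9, 3 and 2 UMIs of the erythroid markers. The median epithelium-like cell held 0 mesenchyme marker UMIs at E14.5 and 1 at E16.5, beside 1 and 3 neuron marker UMIs. Summed over cells, mesenchyme markers in epithelium-like cells stood at 5.09% of their mesenchyme-like level at E14.5 and at 7.2% at E16.5. These shares are set beside the members below, and their part in the members' epithelial levels was not tested. Of the marker UMIs behind them, 224 of 1002 at E14.5 and 2906 of 5081 at E16.5 were of *Dcn*. At E16.5 this marker was higher in epithelium-like than in mesenchyme-like cells, at 171 against 137 CPM, so the share of that stage rests largely on 1 marker. Barcodes rich in globin were not used as a background, because 137 of 146 at E14.5 and 67 of 69 at E16.5 also held at least 2 markers of another lineage.

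**Figure D1:**
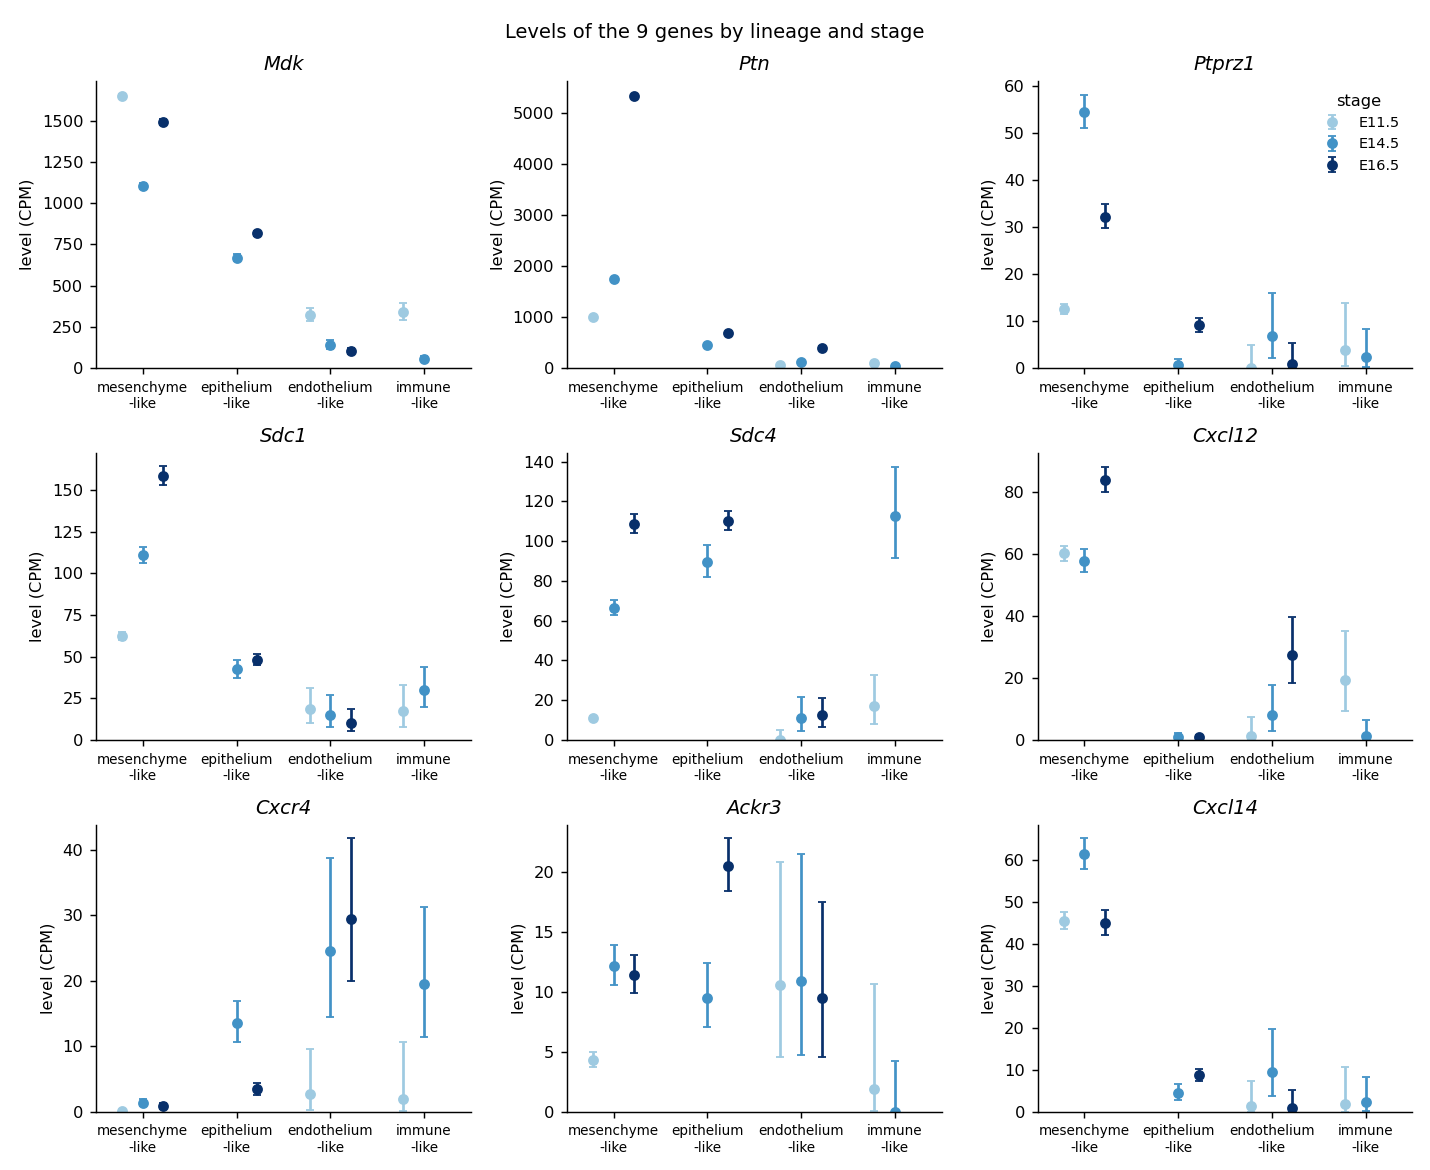
Levels of the 9 genes in CPM (y axis, from 0, a scale of its own for each gene) in 4 lineages (x axis), with 1 point per stage and bars for the exact 95% Poisson interval; epithelium-like cells have no point at E11.5 and immune-like cells none at E16.5, where too few were called. *Ptn* in mesenchyme-like cells stands at 5333 CPM at E16.5, *Cxcl12* lies near 0 in epithelium-like cells, and *Cxcr4* is highest in endothelium-like cells.

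Among the lineages with a value, both growth factor genes were at their highest in mesenchyme-like cells at every stage. Epithelium-like cells had no value at E11.5. The growth factor genes took different courses. *Mdk* measured 1646 CPM [1634, 1658] in mesenchyme-like cells at E11.5, 1103 CPM [1087, 1118] at E14.5 and 1492 CPM [1475, 1509.7] at E16.5, where CPM are UMIs of the gene per 1000000 UMIs of the group. *Ptn* measured 1009.5 CPM [999.97, 1019], 1751 CPM [1731, 1771] and 5333 CPM [5300.1, 5366] at the same stages. *Mdk* was thus lowest at the middle stage and differed by at most 1.49-fold between neighbouring stages, whereas *Ptn* was higher at each later stage. In epithelium-like cells *Mdk* measured 669 CPM [647, 691] at E14.5 and 816 CPM [803, 830.1] at E16.5, and *Ptn* 463 CPM [445, 482] and 694 CPM [682, 707].

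Set against mesenchyme-like cells, the epithelial level of *Mdk* was 60.6% at E14.5 and 54.7% at E16.5, and that of *Ptn* was 26.5% and 13.02%. These shares lay above those of the mesenchyme markers in the same cells, which were 5.09% and 7.2%, and for *Ptn* the gap was smaller at E16.5. The call itself held the marker shares low, because cells with many mesenchyme markers were not called epithelium-like. The gap therefore does not show what part of these levels was epithelial, and this was not tested. Both genes were lower in the other lineages than in mesenchyme-like cells. Endothelium-like cells held *Mdk* at 322, 140.4 and 102 CPM and *Ptn* at 54.2, 116 and 397 CPM over the 3 stages, and immune-like cells held 341 and 55.3 CPM of *Mdk* and 97.8 and 46.1 CPM of *Ptn* at the first 2. In these immune-like cells the mesenchyme markers stood at 17.5% and 3.33% of their mesenchyme-like level, *Mdk* at 20.7% and 5.01% and *Ptn* at 9.69% and 2.63%. In endothelium-like cells the markers stood at 4.62%, 6.14% and 2.15%. Their part in these levels was not tested. Muscle-like cells at E11.5 stood apart in their *Mdk* level, with *Mdk* at 1026 CPM [932, 1127] beside *Ptn* at 135 CPM [102, 175]. In the 95 globin-rich barcodes of E11.5 with at most 1 marker of another lineage, *Mdk* measured 156 CPM and *Ptn* 26.0 CPM.

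The balance between the growth factors in the mesenchyme differed from stage to stage. *Mdk* gave 62.0% [61.7, 62.3] of the UMIs of both genes in mesenchyme-like cells at E11.5, then 38.6% [38.2, 39.1] at E14.5 and a lower 21.9% [21.6, 22.1] at E16.5. For epithelium-like cells the share was 59.1% [57.8, 60.3] at E14.5 and still 54.0% [53.4, 54.6] at E16.5, so *Mdk* gave the larger part there at both stages. In the muscle-like cells of E11.5 the share of *Mdk* was 88.4% [85.2, 91.1]. It was high in other lineages of that stage too. Endothelium-like cells had 85.6% [81.0, 89.5], which overlapped, and immune-like cells 77.7% [71.8, 82.9]. The share is a ratio of UMIs captured at the 3′ end and does not compare the amounts of the proteins.

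**Figure D2:**
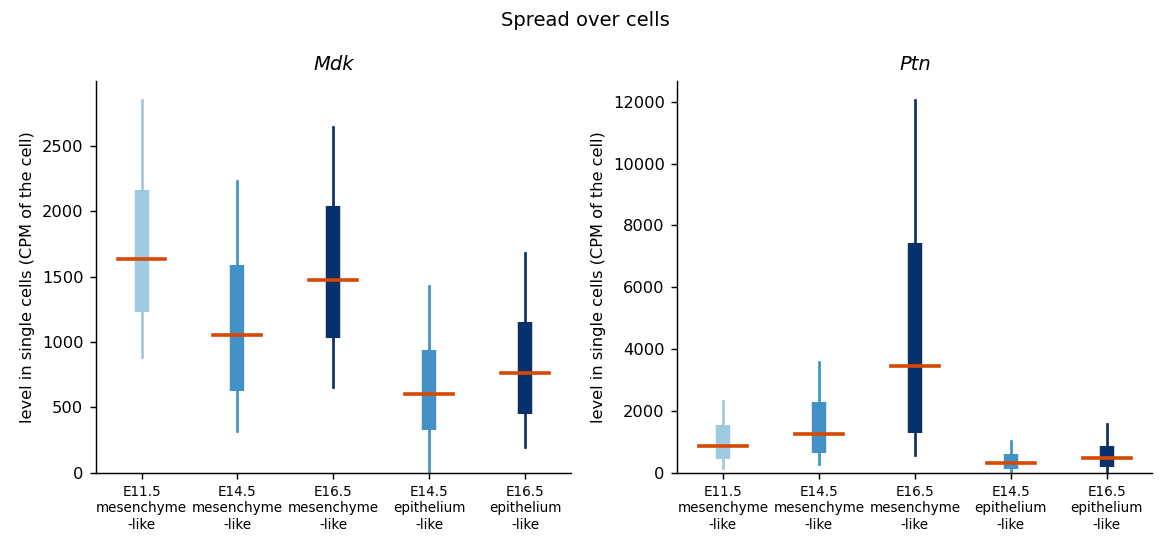
Levels of *Mdk* (left) and *Ptn* (right) in single cells, in CPM of the cell (y axes differ), by stage and lineage; orange lines are medians, thick bars run from the 25th to the 75th percentile and thin lines from the 10th to the 90th. The median of *Ptn* in mesenchyme-like cells stands at 3446 CPM at E16.5, and the thin line reaches 12070.4 CPM.

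Among single mesenchyme-like cells the median of *Mdk* was 1636, 1054 and 1475 CPM over the 3 stages, and that of *Ptn* was 877, 1236 and 3446 CPM. The cells differed more in *Ptn* than in *Mdk*. At E16.5 the 10th and 90th percentiles were 659 and 2647 CPM for *Mdk*, and 571 and 12070.4 CPM for *Ptn*. Cells shallow in UMIs add counting noise to such a spread. With each cell thinned to 2000 UMIs and shallower cells left out (496, 605 and 39 of the mesenchyme-like cells), *Ptn* was detected in 76.2% [74.999, 77.3], 87.5% [86.4, 88.5] and 93.01% [91.9, 94.0] of mesenchyme-like cells, against 92.0%, 92.2% and 98.2% before thinning. In immune-like cells, taken as the background, thinned *Ptn* was detected in 13.6% [6.04, 24.98] and 8.62% [4.21, 15.3] at E11.5 and E14.5, where their median depth was 7760 and 6542 UMIs against 5993 and 3318 in mesenchyme-like cells. These immune-like cells also held the mesenchyme markers, at 17.5% and 3.33% of the mesenchyme-like level.

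The first comparison asked in which tissue layer each gene was found. At E14.5, 5 of the 9 genes were at least 2-fold higher in mesenchyme-like than in epithelium-like cells, 1 was at least 2-fold lower and 3 lay within 2-fold, while 4.12% and 3.78% of the 11367 genes counted deeply enough were higher and lower by that much, 7.9% in all. At E16.5, 5 were higher, 0 lower and 4 within 2-fold, and the shares over 12605 genes were 4.37% and 3.46%, 7.83% in all. *Ptn*, *Ptprz1*, *Sdc1*, *Cxcl12* and *Cxcl14* were the 5 higher genes at both stages. Because the 9 genes were chosen with earlier results of these data known, the shares beside them are a description and no test. The median log2 ratio of the 9 genes was 1.21 and 1.14, beside -0.01 and -0.04 over all genes. Ratios are log2 ratios of CPM with 10 CPM added to both sides, which draws the ratios of low genes toward 0. It thereby also lowers the share of all genes past 2-fold. With 1 CPM added that share was 18.4% at E14.5 and 19.4% at E16.5, beside 6 of the 9 genes each time.

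**Figure D3:**
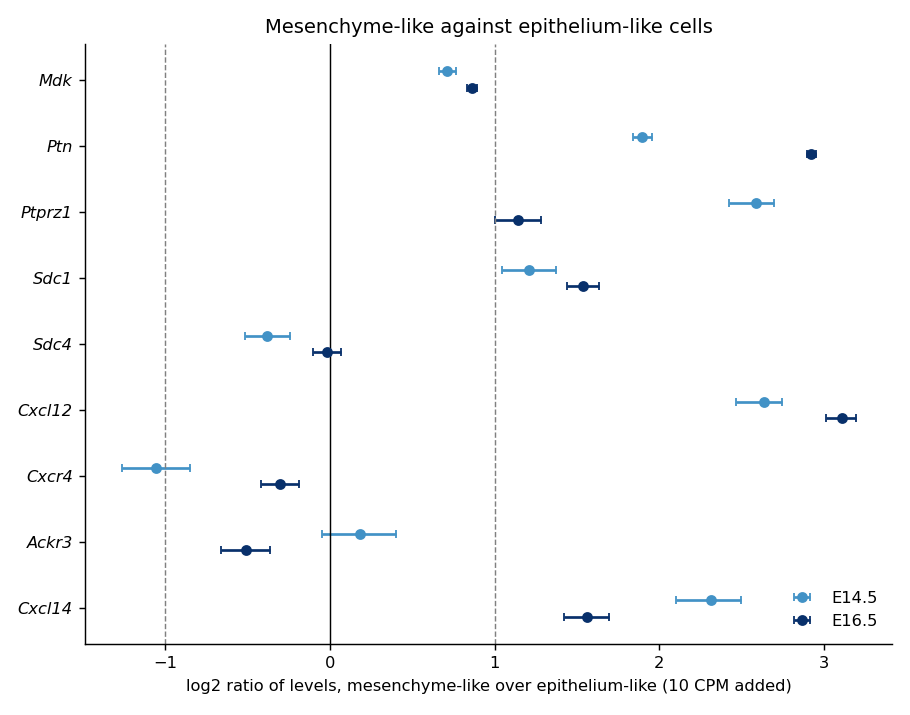
Log2 ratio of levels in mesenchyme-like over epithelium-like cells (x axis, 10 CPM added) for the 9 genes (y axis) at E14.5 and E16.5, with 95% intervals of counting error; dashed lines mark 2-fold. *Ptn*, *Ptprz1*, *Sdc1*, *Cxcl12* and *Cxcl14* lie to the right of the right dashed line at both stages, and *Cxcr4* lies to the left of the left one at E14.5.

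Of the ligands of the growth factor pair, *Ptn* had a ratio of 1.90 [1.84, 1.95] at E14.5 and 2.92 [2.90, 2.95] at E16.5. *Mdk* was higher in mesenchyme-like cells too, at 0.71 [0.66, 0.76] and 0.86 [0.83, 0.89], but stayed within 2-fold. The intervals of both genes excluded 0 at both stages.

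*Ptprz1*, which encodes the receptor phosphatase, was almost absent from the epithelium at E14.5. It measured 12.5 CPM [11.46, 13.6], 54.5 CPM [51.1, 58.1] and 32.2 CPM [29.7, 34.9] in mesenchyme-like cells over the 3 stages, and 0.73 CPM [0.199, 1.87] and 9.1 CPM [7.72, 10.6] in epithelium-like cells at E14.5 and E16.5. The E14.5 value in epithelium rested on 4 UMIs in 622 cells and that of E16.5 on 155 UMIs in 1411 cells. Its ratio was 2.59 [2.42, 2.69] at E14.5 and 1.14 [1.0001, 1.28] at E16.5, and with 1 CPM added in place of 10 the E14.5 ratio was 5.003. The 35 glia- and neural crest-like cells of E14.5 held the gene at 453 CPM [353, 572], above every larger group. Endothelium-like and immune-like cells held between 0 and 6.81 CPM.

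*Sdc1*, a syndecan best known from epithelia and plasma cells, was higher in mesenchyme-like than in epithelium-like cells here. It measured 62.1 CPM [59.7, 64.5], 111 CPM [106, 116] and 158 CPM [153, 164] in mesenchyme-like cells and 42.3 CPM [37.1, 48.1] and 48.1 CPM [44.8, 51.5] in epithelium-like cells. Its ratio was 1.21 [1.04, 1.37] and 1.54 [1.44, 1.63].

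*Sdc4*, a syndecan of cell adhesion sites, followed another pattern. It measured 11.2 CPM [10.2, 12.2], 66.4 CPM [62.7, 70.4] and 109 CPM [104, 114] in mesenchyme-like cells and 89.6 CPM [81.8, 97.9] and 110.3 CPM [105, 115] in epithelium-like cells. Its ratio was -0.38 [-0.52, -0.24] at E14.5 and -0.02 [-0.10, 0.07] at E16.5, so it stayed within 2-fold at both stages, and only the E14.5 interval excluded 0. Immune-like cells of E14.5 held it at 113 CPM [91.6, 138], with an interval that overlapped that of epithelium-like cells, while endothelium-like cells held 10.9 CPM at E14.5 and 12.3 CPM at E16.5.

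*Cxcl12* was higher in mesenchyme-like than in epithelium-like cells and nearly absent from the latter. Mesenchyme-like cells held 60.2 CPM [57.9, 62.5], 57.7 CPM [54.2, 61.4] and 83.9 CPM [79.8, 88.2] over the stages, and epithelium-like cells held 0.912 CPM [0.296, 2.13] and 0.88 CPM [0.493, 1.45]. The epithelial level was 1.58% and 1.05% of the mesenchyme-like level, below the shares of the mesenchyme markers in the same cells. The ratio was 2.63 [2.46, 2.75] at E14.5 and 3.11 [3.01, 3.19] at E16.5, and it was 4.94 and 5.497 with 1 CPM added. Endothelium-like cells held 1.32 CPM [0.0334, 7.36], 8.18 CPM [3.001, 17.8] and 27.5 CPM [18.4, 39.5], from 1, 6 and 29 UMIs. The 35 glia- and neural crest-like cells of E14.5 held 123 CPM [74.0, 192], from 19 UMIs, with an interval above that of mesenchyme-like cells.

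*Cxcr4*, the signaling receptor of CXCL12, was highest outside the mesenchyme. Mesenchyme-like cells held 0.094 CPM [0.0256, 0.241], 1.32 CPM [0.834, 1.98] and 0.857 CPM [0.49, 1.39], from 4, 23 and 16 UMIs. Epithelium-like cells held 13.5 CPM [10.6, 16.9] at E14.5 and 3.4 CPM [2.58, 4.4] at E16.5, from 74 and 58 UMIs. The highest levels were in endothelium-like cells, at 24.5 CPM [14.54, 38.8] and 29.4 CPM [19.99, 41.8], and in immune-like cells of E14.5, at 19.6 CPM [11.4, 31.3], and at E14.5 the intervals of endothelium-like, immune-like and epithelium-like cells overlapped between neighbours in this order. The ratio of mesenchyme-like over epithelium-like cells was -1.05 [-1.26, -0.85] at E14.5, which passed 2-fold, and -0.30 [-0.42, -0.19] at E16.5. Without the 5% of cells with most UMIs the E14.5 ratio was -0.76, within 2-fold. Thinned, *Cxcr4* was detected in 1.72% [0.828, 3.14] of epithelium-like and 0.314% [0.162, 0.547] of mesenchyme-like cells at E14.5, where the median depth before thinning was 5296 and 3318 UMIs, and in 8.36% and 0.451% before thinning.

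*Ackr3*, the scavenging receptor, was found at similar low levels in mesenchyme-like, epithelium-like and endothelium-like cells at E14.5. Mesenchyme-like cells held 4.3 CPM [3.7, 4.97], 12.1 CPM [10.6, 13.9] and 11.4 CPM [9.93, 13.05], epithelium-like cells 9.49 CPM [7.09, 12.4] and 20.5 CPM [18.4, 22.8], and endothelium-like cells 10.6, 10.9 and 9.49 CPM. Immune-like cells of E14.5 held 0 UMIs, which at 3 counts allows up to 3.45 CPM. The ratio between the layers was 0.18 [-0.05, 0.40] at E14.5 and -0.51 [-0.66, -0.36] at E16.5, where epithelium-like cells stood higher.

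Among the lineages with a value, *Cxcl14* was highest in mesenchyme-like cells at each stage, with no value for epithelium-like cells at E11.5. Mesenchyme-like cells held 45.5 CPM [43.5, 47.5], 61.4 CPM [57.8, 65.2] and 45.0 CPM [42.05, 48.2], and epithelium-like cells held 4.38 CPM [2.81, 6.52] and 8.68 CPM [7.34, 10.2]. The ratio was 2.31 [2.10, 2.50] at E14.5 and 1.56 [1.42, 1.69] at E16.5. It was found in a minority of cells, with a thinned share of 6.53% [5.87, 7.24], 8.73% [7.86, 9.67] and 6.46% [5.52, 7.51] of mesenchyme-like cells, against 14.1%, 12.98% and 14.7% before thinning. Before thinning 1 of 59 and 2 of 123 immune-like cells of E11.5 and E14.5 held it, 1.69% and 1.63%, and after thinning none did.

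The second comparison followed each layer from stage to stage. In mesenchyme-like cells, 2 of the 8 genes counted deeply enough were at least 2-fold higher at E14.5 than at E11.5 and 0 were lower, and over 12752 genes 2.81% were higher and 1.9% lower, 4.71% in all. From E14.5 to E16.5, 1 of 8 was higher and 0 lower, and over 12240 genes the shares were 1.23% and 0.392%, 1.63% in all. In epithelium-like cells 0 of 8 passed 2-fold in either direction from E14.5 to E16.5, and 1.52% of 11389 genes did, 1.22% higher and 0.299% lower. *Cxcr4* in mesenchyme-like cells and *Cxcl12* in epithelium-like cells were the genes counted too thinly. These counts turned on the CPM added, since with 1 CPM *Ptprz1* (2.55), *Cxcr4* (-1.72) and *Ackr3* (1.04) passed 2-fold in epithelium-like cells, and with 50 CPM *Ptprz1* and *Sdc4* no longer did from E11.5 to E14.5 in mesenchyme-like cells. The median log2 ratio of the members was 0.69, 0.45 and 0.33 in these 3 comparisons, beside -0.09, 0.08 and 0.10 over all genes.

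**Figure D4:**
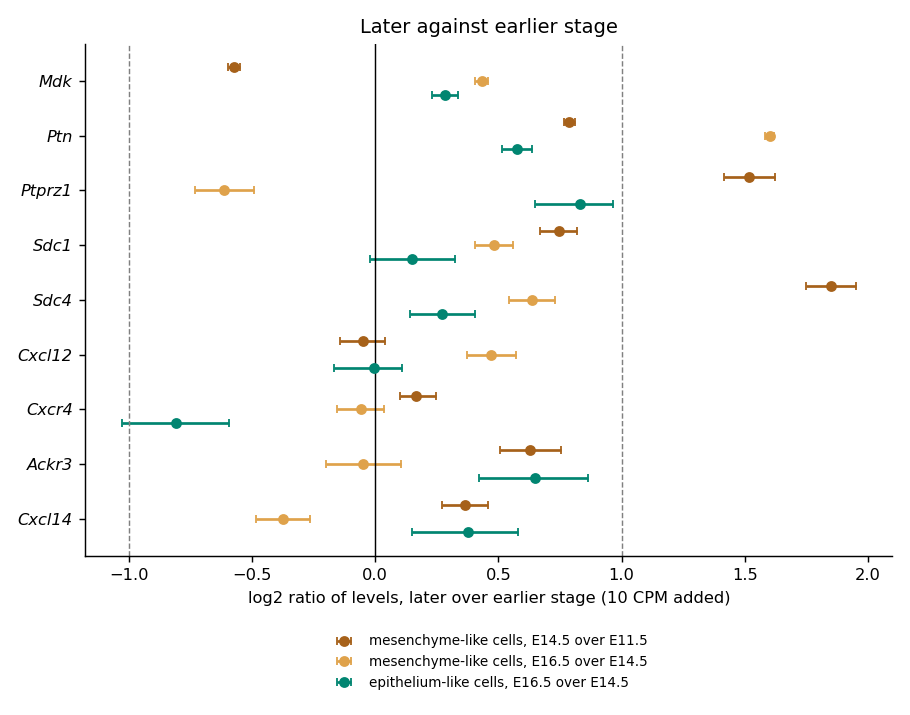
Log2 ratio of levels at the later over the earlier stage (x axis, 10 CPM added) for the 9 genes (y axis) in mesenchyme-like cells (brown, orange) and epithelium-like cells (green), with 95% intervals of counting error; dashed lines mark 2-fold. *Ptprz1* and *Sdc4* from E11.5 to E14.5 and *Ptn* from E14.5 to E16.5 are the points past the right dashed line, all in mesenchyme-like cells, and the points of *Cxcr4* in mesenchyme-like and *Cxcl12* in epithelium-like cells rest on under 50 UMIs.

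*Ptprz1* and *Sdc4* were the genes past 2-fold at the first step in mesenchyme-like cells, with log2 ratios of 1.52 [1.41, 1.62] and 1.85 [1.75, 1.95]. *Ptn* was the gene past 2-fold at the second, with 1.60 [1.58, 1.62] after 0.79 [0.77, 0.81] at the first step. *Mdk* went from -0.57 [-0.60, -0.55] at the first step to 0.43 [0.41, 0.46] at the second, so its signs were opposite and its intervals excluded 0 both times. *Sdc1* was higher at each step, by 0.74 [0.67, 0.82] and 0.48 [0.40, 0.56].

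Among the chemokine genes, *Cxcl12* in mesenchyme-like cells gave -0.05 [-0.14, 0.04] and 0.47 [0.37, 0.57] at the 2 steps, and *Cxcl14* gave 0.36 [0.27, 0.46] and -0.38 [-0.49, -0.27]. *Ackr3* gave 0.63 [0.50, 0.76] and -0.05 [-0.20, 0.10]. With 10 CPM added all stayed within 2-fold, but *Ackr3* gave 1.31 at the first step with 1 CPM added. At the second step *Ptprz1* was lower in mesenchyme-like cells, at -0.61 [-0.73, -0.49], and higher in epithelium-like cells, at 0.83 [0.65, 0.97]. In epithelium-like cells *Ptn* gave 0.57 [0.51, 0.64], *Mdk* 0.28 [0.23, 0.34], *Ackr3* 0.65 [0.42, 0.86] and *Cxcr4* -0.81 [-1.03, -0.59], and the intervals of *Sdc1* and *Cxcl12* included 0.

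Genes that respond to heat and to dissociation are set beside *Sdc4* here. They were looked up after the correlations given further below had been seen, where *Hspa1a* (0.922) and *Hspa1b* (0.914) ranked 1st and 3rd for *Sdc4*. The parallel of these chaperone genes with *Sdc4* therefore follows from the choice. For mesenchyme-like cells, where *Sdc4* was higher at each later stage, the levels of the 6 genes looked up are given without a count, because their choice was not independent. *Hspa1a* and *Hspa1b*, inducible heat shock chaperones, stood at 2.14, 65.5 and 104 CPM and at 3.08, 89.5 and 127 CPM over the 3 stages. The immediate early genes *Fos*, *Jun* and *Egr1* stood at 17.5, 257 and 539.7 CPM, at 82.8, 362 and 519 CPM and at 6.09, 107 and 242 CPM, while *Atf3* stood at 0.165, 10.02 and 8.94 CPM. In epithelium-like cells, where *Sdc4* was higher at E16.5 than at E14.5, *Hspa1a* and *Hspa1b* were higher too, at 78.5 and 108 CPM and at 134 and 180.1 CPM. The others were lower there at E16.5, *Fos* with 234 and 217 CPM, *Jun* with 1019 and 427 CPM, *Egr1* with 182 and 122 CPM and *Atf3* with 338 and 45.0 CPM. *Cxcr4* in epithelium-like cells was lower at E16.5 as well, at 13.5 and 3.4 CPM, unlike *Hspa1a* and *Hspa1b*. The part of the genes looked up in the levels of *Sdc4* and *Cxcr4* was not tested.

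Each layer was split by further markers, and the names of the subgroups say only which markers led. Mesenchyme-like cells with dental mesenchyme markers (such as *Lhx6*, *Pax9* and *Barx1*) numbered 2092, 1180 and 1019 at the 3 stages, and those with osteogenic markers (such as *Runx2* and *Sp7*) numbered 643 and 421 at E14.5 and E16.5. At E11.5, where osteogenic cells were too few, 671 cells had chondrogenic markers (such as *Col2a1*). The names are weak at that stage of whole mandibles. The chondrogenic cells held chondrogenic markers at 524 CPM and dental mesenchyme markers at 445 CPM, and the dental mesenchyme cells held 145 and 987 CPM. Epithelium-like cells with tooth bud markers (such as *Shh* and *Sp6*) numbered 305 and 802, and those with outer or oral markers (such as *Krt15* and *Krt13*) 151 and 278. The epithelial split was less clean at E16.5. Tooth bud cells there held tooth bud markers at 1209 CPM and outer or oral markers at 749 CPM, and outer or oral cells held 687 and 1953 CPM. At E14.5 the values were 1303 and 142 CPM, and 353 and 1977 CPM. The outer or oral list includes *Wnt4*, which the paper links to the stellate reticulum. Between 23.5% and 57.5% of a layer had no clear further identity, and these cells, with small chondrogenic and mural subgroups, are left out of the values that follow. None of the 9 genes was used for the split.

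**Figure D5:**
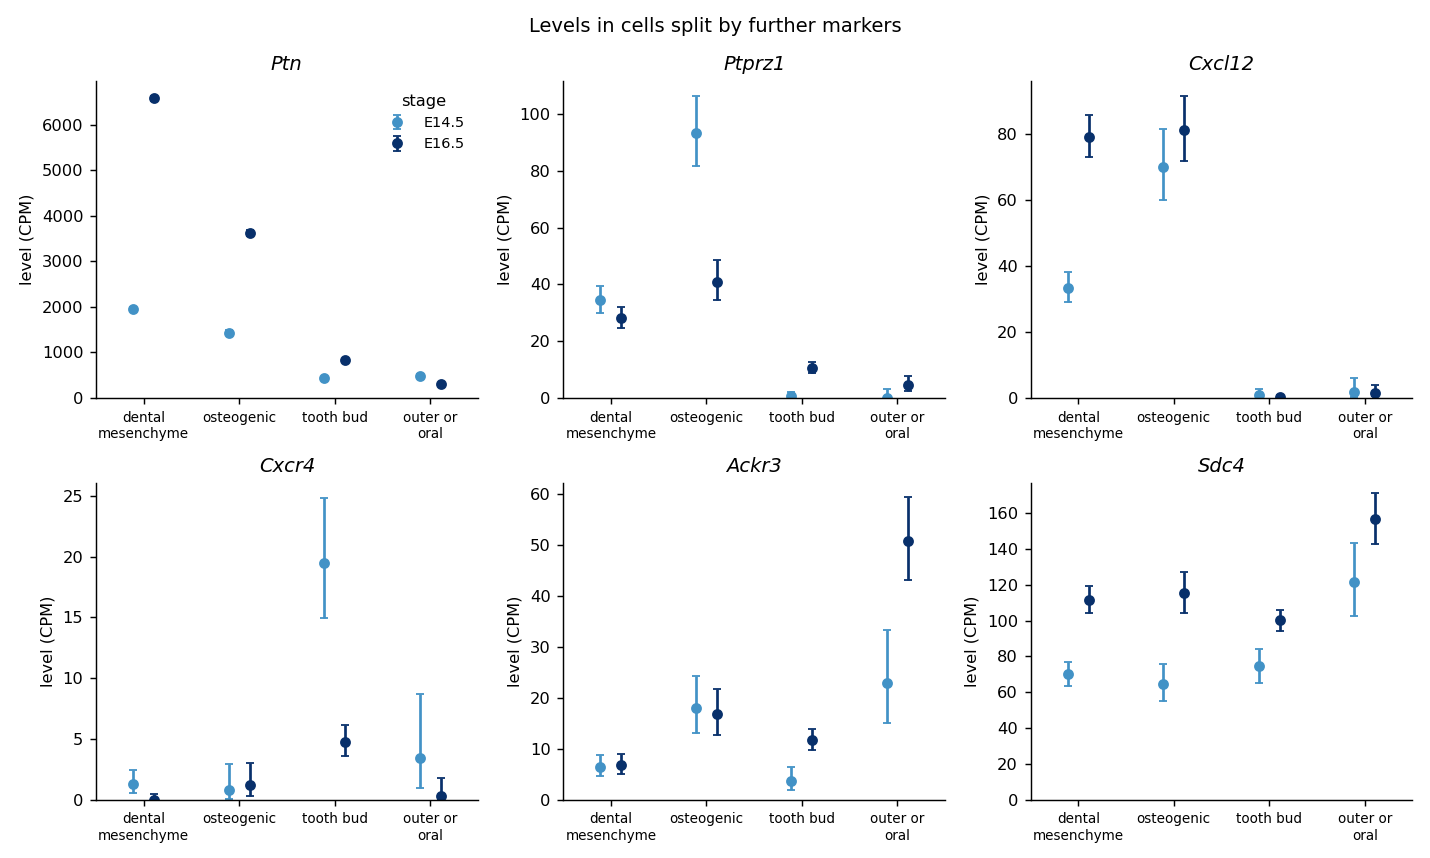
Levels of 6 genes in CPM (y axis, from 0, a scale of its own for each gene) in 2 subgroups of mesenchyme-like cells and 2 of epithelium-like cells (x axis) at E14.5 and E16.5, with exact 95% Poisson intervals. *Cxcr4* is highest in tooth bud epithelium, and *Ptn* is highest in dental mesenchyme at E16.5. *Ackr3* is highest in outer or oral epithelium, with an interval that overlaps that of osteogenic cells at E14.5.

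*Ptn* at E16.5 was higher in cells with dental mesenchyme markers, at 6583 CPM [6527, 6639.7], than in osteogenic cells, at 3617 CPM [3554, 3682]. At E14.5 the same subgroups held 1964 CPM [1929, 1999] and 1438 CPM [1391, 1487]. In the epithelium, *Ptn* at E16.5 was 842 CPM [825, 859] in tooth bud cells and 298 CPM [279, 318] in outer or oral cells. The mesenchyme markers summed to 267 and 381 CPM there. Over all epithelium-like cells of that stage 2906 of 5081 of these marker UMIs were of *Dcn*, and their part in the *Ptn* levels was not tested. At E14.5 the epithelial subgroups held *Ptn* at 447 CPM [424, 470.3] and 487 CPM [448, 529], with overlapping intervals. *Mdk* was 1055 CPM [1030.3, 1081] in dental and 972 CPM [933, 1012] in osteogenic mesenchyme at E14.5, and 1581 CPM [1553, 1609] and 1335 CPM [1296, 1374] at E16.5. In tooth bud and outer or oral epithelium it was 607 CPM [581, 635] and 772 CPM [722, 824] at E14.5, and 831 CPM [814, 847] and 727 CPM [697, 758] at E16.5. The order of the epithelial subgroups was thus opposite at the 2 stages, with no overlap of their intervals at either.

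*Ptprz1* was highest in osteogenic cells at E14.5, at 93.4 CPM [81.7, 106] against 34.5 CPM [30.1, 39.4] in dental mesenchyme. At E16.5 the values were 41.0 CPM [34.5, 48.4] and 28.2 CPM [24.6, 32.1]. At E11.5 dental mesenchyme held more of it than chondrogenic cells, 19.4 CPM [17.5, 21.4] against 5.54 CPM [3.79, 7.82]. *Sdc1* was likewise higher in osteogenic than in dental mesenchyme at E14.5, 149 CPM [134, 165] against 96.1 CPM [88.6, 104], and overlapped between them at E16.5, 161 CPM [148, 175] against 149 CPM [141, 158].

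*Cxcl12* at E14.5 was 33.4 CPM [29.1, 38.2] in dental mesenchyme and 70.0 CPM [59.9, 81.4] in osteogenic cells, and at E16.5 the values were 79.1 CPM [73.0, 85.6] and 81.2 CPM [71.9, 91.4], with overlapping intervals. The intervals of the subgroups were thus apart at E14.5 and overlapped at E16.5. At E11.5 chondrogenic cells held 84.2 CPM [76.8, 92.0] and dental mesenchyme 50.3 CPM [47.2, 53.5]. *Cxcl14* went the other way at that stage, with 21.3 CPM [17.7, 25.4] in chondrogenic cells and 62.8 CPM [59.4, 66.4] in dental mesenchyme. At E14.5 *Cxcl14* was 49.5 CPM [44.1, 55.3] in dental mesenchyme and 61.0 CPM [51.6, 71.7] in osteogenic cells, with overlapping intervals, and at E16.5 the order was the other, 45.5 CPM [40.9, 50.5] and 30.1 CPM [24.6, 36.6].

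The CXCL12 receptors differed in opposite directions between the epithelial subgroups, which at E16.5 shared many of each other's markers. *Cxcr4* was 19.4 CPM [14.97, 24.8] in tooth bud cells and 3.4 CPM [0.925, 8.7] in outer or oral cells at E14.5, and 4.74 CPM [3.56, 6.18] and 0.327 CPM [0.00828, 1.82] at E16.5. *Ackr3* was 3.65 CPM [1.88, 6.37] in tooth bud cells and 22.9 CPM [15.1, 33.4] in outer or oral cells at E14.5, and 11.8 CPM [9.85, 13.9] and 50.7 CPM [43.1, 59.4] at E16.5. The intervals of the subgroups did not overlap for either gene at either stage. The *Cxcr4* values of outer or oral cells rested on 4 and 1 UMIs. Tooth bud cells were also deeper, with a median of 7050 against 5273 UMIs at E14.5 and 9227 against 6277.5 at E16.5. In the mesenchyme, *Ackr3* was higher in osteogenic than in dental cells, 18.0 CPM [13.1, 24.2] against 6.46 CPM [4.63, 8.76] at E14.5 and 16.8 CPM [12.7, 21.8] against 6.83 CPM [5.13, 8.91] at E16.5.

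Ligand and receptor were then looked for in the same cells, thinned to 2000 UMIs. Of the mesenchyme-like cells with a *Cxcl12* UMI, 0 of 532 at E11.5, 2 of 465 at E14.5 and 1 of 391 at E16.5 also had a *Cxcr4* UMI. At E11.5 none of the 5132 thinned mesenchyme-like cells held *Cxcr4*, so nothing can be read from that stage. Of the cells without *Cxcl12*, 0.298% at E14.5 and 0.145% at E16.5 held *Cxcr4*, against 0.43% and 0.256% of those with it, with overlapping intervals. *Ackr3* was found in 4 of 532, 19 of 465 and 10 of 391 of those cells. At E14.5 this was 4.09% [2.48, 6.31], against 2.83% [2.29, 3.45] of cells without *Cxcl12*, with overlapping intervals. The shares were 0.752% against 0.87% at E11.5, in the other order, and 2.56% against 1.88% at E16.5, again with overlapping intervals.

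*Ptprz1* was found in 10.2% [9.16, 11.2] of mesenchyme-like cells with *Ptn* at E14.5 and in 6.69% [4.62, 9.32] of those without, and the intervals overlapped by a small margin. At E16.5 the shares were 5.77% and 5.81%. *Sdc4* was found in 24.0% [20.8, 27.4] of mesenchyme-like cells with *Sdc1* and 20.7% [18.8, 22.6] of those without at E16.5, with overlapping intervals.

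The wider pathway was read from 4 lists of genes. Of 16 receptors and binding partners of the growth factors, 12 were counted deeply enough to compare the layers at E14.5, and 3 were higher in mesenchyme-like cells, 2 lower and 7 within 2-fold. At E16.5 the counts were 2, 2 and 8 of 12. Over all genes the shares past 2-fold were 4.12% higher and 3.78% lower at E14.5, and 4.37% and 3.46% at E16.5, and the median log2 ratio of the list was 0.17 and 0.44, beside -0.01 and -0.04 over all genes. *Lrp1*, an endocytic receptor that binds midkine, was higher in mesenchyme-like cells at E14.5, at 132 against 52.5 CPM with a log2 ratio of 1.18 [1.03, 1.33]. The integrin subunit *Itga6* and the receptor phosphatase *Ptprf* were lower at both stages, with -1.96 [-2.08, -1.85] and -2.45 [-2.57, -2.32] at E14.5 and -2.73 [-2.84, -2.62] and -2.69 [-2.79, -2.59] at E16.5. *Itga4*, another integrin subunit, was higher in mesenchyme-like cells at E16.5, with 2.08 [1.97, 2.20]. The others past 2-fold had levels under 100 CPM and were named after their values were seen, *Sdc2*, a further syndecan, with 1.82 [1.61, 2.02] and 1.41 [1.29, 1.53] at the 2 stages and the co-receptor *Nrp1* with 1.99 [1.78, 2.16] at E14.5. *Alk*, a receptor kinase proposed for both growth factors, had at most 32 UMIs in any group, those of mesenchyme-like cells at E11.5.

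Across stages, 4 of 13 partners were at least 2-fold higher and 0 lower in mesenchyme-like cells at E14.5 than at E11.5, and 1 was higher and 2 lower at E16.5 than at E14.5. Over all genes 2.81% were higher and 1.9% lower at the first step, and 1.23% and 0.392% at the second. The median of the list was 0.52 and -0.02, beside -0.09 and 0.08 over all genes. The integrin subunit *Itgb1* went from 148 to 373 CPM at the first step, with 1.27 [1.23, 1.32]. *Sdc2*, *Itga6* and *Itgav*, at lower levels, gave 1.34 [1.25, 1.43], 1.84 [1.73, 1.95] and 1.11 [1.003, 1.21]. *Itga4* went from 11.9 to 117 CPM at the second, with 2.53 [2.41, 2.65], while *Itga6* and *Nrp1* were the 2 lower, with -1.16 [-1.29, -1.02] and -1.23 [-1.37, -1.09]. In epithelium-like cells 0 of 12 partners passed 2-fold between E14.5 and E16.5, and 1.52% of all genes did. The median of the list was 0.12, beside 0.10 over all genes.

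Of 17 glypicans and heparan sulfate enzymes, 16 could be compared. In mesenchyme-like over epithelium-like cells 3 were higher and 1 lower at each of the later stages. The glypicans *Gpc3* and *Gpc6*, which carry heparan sulfate on a lipid anchor, gave 2.65 [2.54, 2.76] and 2.04 [1.90, 2.18] at E14.5 and 1.02 [0.96, 1.07] and 1.96 [1.87, 2.06] at E16.5. The remaining calls were at lower levels, *Sulf1* with 1.41 [1.21, 1.60] at E14.5, *Sulf2* with 2.16 [2.03, 2.28] at E16.5, and the sulfotransferase *Hs6st1*, the lower one, with -1.17 [-1.35, -0.99] and -1.36 [-1.49, -1.22]. In mesenchyme-like cells *Sulf1* was higher at the first step, with 1.11 [1.02, 1.21], and *Sulf2* and *Gpc2* were lower, with -1.07 [-1.16, -0.98] and -1.07 [-1.19, -0.95], and 0 of 16 passed 2-fold at the second. *Sulf1* and *Sulf2* encode sulfatases that trim heparan sulfate. In epithelium-like cells they were the 1 higher and the 1 lower gene, with 1.29 [1.098, 1.49] and -1.25 [-1.46, -1.05]. The median log2 ratio of the list was 0.01 and -0.25 between the layers, 0.16 and -0.05 at the steps in mesenchyme-like cells and -0.10 in epithelium-like cells, and the medians and shares over all genes are those given above.

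Of 13 chondroitin sulfate proteoglycans and enzymes, 9 and 10 could be compared between the layers at E14.5 and E16.5, and 1 was higher and 1 lower each time. Of all genes 4.12% were higher and 3.78% lower at E14.5, and 4.37% and 3.46% at E16.5. The proteoglycan *Bgn* was the higher one, with 3.08 [2.88, 3.27] and 2.19 [2.07, 2.30], and the sulfotransferase *Chst11* the lower one, with -2.22 [-2.39, -2.05] and -1.57 [-1.71, -1.43]. *Bgn* was also higher in mesenchyme-like cells at E14.5 than at E11.5, with 2.63 [2.55, 2.70]. At that step 2 of 10 were higher and 0 lower, *Dcn* with 2.57 [2.47, 2.66] being the other, and at the next 0 of 10 passed 2-fold. Of all genes 2.81% were higher and 1.9% lower at the first step, and 1.63% passed 2-fold at the next. In epithelium-like cells 2 of 8 genes of the list were higher at E16.5 than at E14.5, *Dcn* with 1.83 [1.67, 1.99] and *Xylt1* with 1.01 [0.78, 1.21]. Of all genes 1.22% were higher there and 0.299% lower. *Dcn* is itself 1 of the mesenchyme markers used to call cells. The list median was 0.11 and -0.02 between the layers, 0.47 and 0.03 at the steps in mesenchyme-like cells and 0.12 in epithelium-like cells. Medians over all genes were -0.01, -0.04, -0.09, 0.08 and 0.10 in the same order.

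The other chemokines and their receptors were mostly too sparse to compare, with 4 to 9 of 34 counted deeply enough. Between the layers 0 were higher in mesenchyme-like cells, and 1 was lower at E14.5, *Cxcl10* with -1.99 [-2.16, -1.81], and 0 at E16.5. Of all genes 4.12% were higher and 3.78% lower at E14.5, and 4.37% and 3.46% at E16.5. Over the stages 0 of 4 and 0 of 5 passed 2-fold in mesenchyme-like cells, and 1 of 7 was lower in epithelium-like cells, again *Cxcl10*, with -1.69 [-1.88, -1.50]. Of all genes 4.71% and 1.63% passed 2-fold in the former, and 0.299% were lower in the latter. A few genes of this list were high in immune-like cells. At E14.5 these cells held *Ccl4* at 991 CPM, *Cxcl2* at 449 CPM and the fractalkine receptor *Cx3cr1* at 223 CPM. Mesenchyme-like cells held 0.458, 0.458 and 0.0572 CPM. The medians of the list were -0.70 and -0.18 between the layers, -0.41 and 5.8e-05 in mesenchyme-like cells and -0.36 in epithelium-like cells. Those over all genes were -0.01, -0.04, -0.09, 0.08 and 0.10 in the same order. *Ccl4*, *Cxcl2*, *Cx3cr1* and *Cxcl10* were picked after their values had been seen. *Ccl25* was 28.6 CPM in mesenchyme-like cells of E11.5, and *Ccl27a* was 42.5 CPM in those of E16.5, both picked in the same way. *Cxcl12* and *Cxcl14* were low in immune-like cells, with 1.15 and 2.3 CPM at E14.5.

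Across 14 groups of stage and lineage with at least 50 cells, genes were ranked by the Pearson correlation of their log2 levels with each member, among 10086 genes. The groups share libraries and depth, the globin-rich barcodes are 3 of them, and the values are a description. Nearest to *Mdk* were *Fzd2* (0.962), *Bex2* (0.956) and *Plppr3* (0.954), and nearest to *Ptn* were *Col11a1* (0.949), *Gxylt2* (0.948) and *Wnt5a* (0.942). *Ptprz1* was followed by *Gm11627* (0.959), *Prr16* (0.959) and *Slc1a3* (0.946), *Sdc1* by *Plxdc2* (0.961), *Ly75* (0.952) and *Efnb1* (0.95), and *Sdc4* by *Hspa1a* (0.922), *S100a6* (0.919) and *Hspa1b* (0.914). *Cxcl12* was followed by *Hand2* (0.9), *Aldh1a2* (0.896) and *Hand2os1* (0.89), and *Cxcl14* by *Sobp* (0.944), *Rnf227* (0.917) and *Gpc6* (0.916). The receptors had weaker neighbours, with *Sbno2* (0.822), *Ppp1r15a* (0.821) and *Btg1* (0.82) for *Cxcr4* and *Selenow* (0.876), *Tmem167b* (0.801) and *Arf5* (0.794) for *Ackr3*. Among the members themselves, *Ptn* was most like *Sdc1* (0.84) and *Cxcr4* least like *Mdk* (-0.78).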

How the data were processed

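Single-cell libraries (10x Genomics Chromium 3′ v3) of E11.5 mandibles and of E14.5 and E16.5 incisor buds were aligned by the authors to mm10 with Cell Ranger 4.0.0, per the labels and the submitters' processing notes. The deposited matrices hold raw UMI counts per gene and barcode, 1 per stage, and were used without change. The filter kept cells of 700 genes or more in which mitochondrial UMIs made up 20% or less. Total UMIs of the kept cells were 47513863, 27765839 and 40024102. No doublet caller was run, and an alternative left out the 5% of cells with most UMIs.

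A barcode with at least 5% of its UMIs from 7 globin genes was called erythroid. Any other cell took the lineage with most of its markers detected, given at least 2 markers and a lead of 2 over the next lineage, and subgroups needed 2 markers and a lead of 1. These rules, the split of globin-rich barcodes and the stress genes were set after the files were seen. The members and lists were chosen with earlier results of these data known. The UMIs of a group's cells were added up and scaled to CPM. Ratios used 10 CPM added to both sides and were compared for genes with at least 50 UMIs over both groups, and groups under 50 cells gave no ratio. Intervals are exact Poisson for levels, Clopper-Pearson for shares, and combined from both Poisson intervals for ratios. UMIs were not scaled to transcript length, so levels of different genes were not ranked, except where *Mdk* and *Ptn* UMIs were set against each other.

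All 9 members are named. Genes of the 4 lists are named where past 2-fold with at least 100 CPM in either group, at most 6 per list and comparison. List genes named outside this rule, such as *Chst11* and *Xylt1*, had lower levels or were picked after their values were seen. The ratios with their intervals and the lineage calls of epithelium, mesenchyme and endothelium were run on simulated counts. The other steps were not. Computations used python 3.11.15, numpy 2.4.6, scipy 1.17.1, pandas 2.3.3, scikit-learn 1.9.0, matplotlib 3.10.9, igraph 0.11.9 and leidenalg 0.10.2. Alternatives changed the cell filter, the lineage call, the depth, the CPM added and the filter on low counts.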

Additional observations from a re-analysis of the deposited data

Results flagged for a closer look

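From E14.5 to E16.5, *Ptprz1* had opposite signs in the layers, with a log2 ratio of -0.61 in mesenchyme-like cells and 0.83 in epithelium-like cells. *Cxcl14* did too, with -0.38 and 0.38. They were picked out because each of the 4 intervals of counting error excluded 0. With 1 sample per stage the difference between the layers was not tested. The epithelial ratio of *Cxcl14* was 0.10 with the stricter lineage call and 0.09 without the 5% of cells with most UMIs, and that of *Ptprz1* was 0.56 with the stricter call. Over the same stages the mesenchyme markers in epithelium-like cells went from 5.09% to 7.2% of their mesenchyme-like level, and their part in these ratios was not tested. Of these marker UMIs, 224 of 1002 at E14.5 and 2906 of 5081 at E16.5 were of the single marker *Dcn*. In epithelium-like cells all mesenchyme markers summed to 183 and 298 CPM at these stages, and *Dcn* alone stood at 40.9 and 171 CPM. The higher share at E16.5 thus came from *Dcn* and does not show a rise of the other markers.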

How the results depend on the processing

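Of 450 ratios of members under 10 alternatives, 441 kept their sign and 0 of those past 2-fold changed sign, and the 9 others had reported values between -0.05 and -0.0042. Among these 9, changes of depth gave some intervals above 0. *Cxcl12* in mesenchyme-like cells from E11.5 to E14.5 was 0.20 [0.05, 0.34] when thinned. *Sdc4* between the layers at E16.5 was 0.12 [0.02, 0.23] without the 5% of cells with most UMIs. The CPM added decided most changes. With 50 CPM added, 3 genes in place of 5 passed 2-fold between the layers at E16.5 and 0 in place of 2 in mesenchyme-like cells from E11.5 to E14.5, where *Ptprz1* had a ratio of 0.74 and *Sdc4* of 0.93. The calls between the layers that ended were *Sdc1* (0.80) and *Cxcr4* (-0.31) at E14.5 and *Ptprz1* (0.48) and *Cxcl14* (0.70) at E16.5. With 1 CPM added, 3 genes in place of 0 passed 2-fold in epithelium-like cells from E14.5 to E16.5, which were *Ptprz1* (2.55), *Cxcr4* (-1.72) and *Ackr3* (1.04), and over all genes 6.65% did. It also put *Cxcr4* between the layers at E16.5 (-1.25) and *Ackr3* in mesenchyme-like cells from E11.5 to E14.5 (1.31) past 2-fold. Over all genes the share past 2-fold was 6.3% to 19.4% in the 5 comparisons with 1 CPM added and 0.281% to 2.08% with 50 CPM added, against 1.52% to 7.9% with 10 CPM. All other counts of members stayed within 1.5 times under every alternative run. *Cxcr4* at E14.5 dropped within 2-fold between the layers without the 5% of cells with most UMIs (-0.76) and when thinned to 2000 UMIs (-0.81), and had too few UMIs under the stricter call. With lineages taken from Leiden clusters, 996 and 1753 cells were epithelium-like at E14.5 and E16.5 and 0 at E11.5, and 98.4% to 99.0% of called cells kept their lineage. Each cluster took the lineage that most of its called cells had, so part of this agreement was built in. No paired analysis was possible because nothing ties single barcodes to the labelled samples, and for the same reason no replicate could be left out. Results for epithelium-like cells of E11.5 could not be computed from 12 cells. Low levels of *Cxcr4*, *Ackr3* and epithelial *Ptprz1* and *Cxcl12* are limited by depth, with 4 to 350 UMIs behind each value in mesenchyme-like or epithelium-like cells.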

Other observations

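Of the globin-rich barcodes, the 95 of E11.5 with at most 1 marker of another lineage, a split chosen after the data were seen, held *Mdk* at 156 CPM and the 34 others at 928 CPM. *Mif*, the chemokine-like cytokine of the lists, was broadly present, from 442 CPM in endothelium-like cells of E16.5 to 1640.5 CPM in mesenchyme-like cells of E11.5, leaving out globin-rich barcodes. *Cxcl10* stood at 31.6 CPM in epithelium-like cells of E14.5 and 2.88 CPM in those of E16.5, and at 509 CPM in immune-like cells of E14.5.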
